A study of Mus musculus with 6 samples.

Results

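The cells described here are colon macrophages that carried the transcripts of mature resident macrophages, in 6 single-cell RNA libraries of mouse colon. The cells were chosen by measured UMI counts of these transcripts, so the levels of those genes are a description and no finding. A cell was taken when C1qa, C1qb and C1qc together had at least 10 unique molecular identifiers (UMIs, each a counted RNA molecule) and Tanc2, Mir99ahg, Hpgd and Cd163 together had at least 3. It also had to have no UMI of Nos2, Arg1 or Epcam, fewer than 5 UMIs of Gpnmb and fewer than 2 UMIs of 8 cell-cycle genes. Of 60605 barcodes, 39613 passed the filters of at least 500 genes and at most 10% mitochondrial UMIs, and 1162 of those met the rule. These 1162 cells are called members below, and cells with at least 10 C1q UMIs are called C1q-high.

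The mice had received bone marrow with adjunctive spleen cells (GVHD, the setting of graft-versus-host disease, in which donor T cells attack recipient tissue) or bone marrow alone (BM). Libraries of sorted donor CD11b+ CD64+ macrophages were made from GVHD mice, from BM mice, from IL-34-/- recipients (IL34KO below) and from WT recipients, and libraries of sorted donor T cells were made from IL-34-/- and from WT recipients. Each group was 1 library, so no test between groups was possible. Neither strain, age, day after transplant nor the number of pooled mice is given in the sources used here. All intervals below are 95% intervals that cover counting error only. The study's question was whether IL-34, a ligand of the receptor CSF1R made by the intestinal epithelium, affects macrophage polarization and T cells in the colon.

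Resident macrophages of the gut lamina propria and muscle layers are long known to be replenished in large part from blood monocytes, which lose Ly6C and CCR2 and gain CX3CR1, F4/80 (Adgre1) and MHC class II as they mature. Long-lived subsets that carry TIM-4 and CD4, or lie along vessels and nerves and carry LYVE1, FOLR2 and CD163, persist beside them. Mature cells clear apoptotic cells and bacteria, make IL-10 and growth factors, and depend on CSF1R signals. In a transplanted mouse, donor cells sorted from the colon come from the graft.

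Several properties of the libraries bear on every count below. GVHD and BM barcodes overlapped at 2502 of 4169 GVHD barcodes, and for 2486 of the 2502 the GVHD library held more UMIs, the BM library holding a median of 8.60% of the GVHD count. These barcodes were dropped from BM, where 2 of them would have met the rule. Every one of the 13 GVHD members had a barcode also found in BM, as did 93.4% of GVHD C1q-high cells. Other pairs of libraries shared between 5 and 75 barcodes. The 2 libraries labelled as T cells held C1q-high cells at 53.6% (IL34KO) and 57.6% (WT) of their filtered cells, so most of their filtered cells went against the label, and their members are macrophages from a T-cell sort. Il34, the gene targeted in the IL34KO recipients, had no UMI among members of either library labelled IL34KO, and 0 and 1 UMI among WT members of the macrophage and T-cell libraries. In the other C1q-high cells it was at 0.349 CPM (IL34KO) and 0.195 CPM (WT) of the macrophage libraries, and at 0.141 CPM (IL34KO) and 0.110 CPM (WT) of the T-cell libraries. All these levels lay below 1 CPM, too low to show whether Il34 was lower in the libraries labelled IL34KO. As the sorted cells were donor-derived, Il34 does not check the recipients' genotype. The median member held between 6862 UMIs (WT T-cell library) and 20870 UMIs (GVHD).

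The promoters of the transcripts that chose the members are shown because these genes define the population. C1qa, C1qb and C1qc, which encode the chains of the first component of complement, lie side by side on the minus strand of chromosome 4 (chr4:136895917-136898803, chr4:136880129-136886187 and chr4:136889804-136893065). Tanc2, a scaffold protein gene, lies at chr11:105589986-105929304 on the plus strand, and Mir99ahg, a long noncoding host transcript of a microRNA cluster, at chr16:77236317-77773427 on the plus strand. Hpgd, which encodes the enzyme that inactivates prostaglandins, lies at chr8:56294585-56321043 on the plus strand, and Cd163, the receptor for haptoglobin-haemoglobin complexes, at chr6:124304656-124330527 on the plus strand (GENCODE M21, GRCm38). The 250 bases before the RefSeq start (GRCm38.p6) were searched on both strands for TGCTGA (reverse complement TCAGCA), the core of the MAF half-site, and for GAGGAA (reverse complement TTCCTC), the core bound by PU.1. c-Maf and PU.1 are transcription factors of macrophages. Of 32851 RefSeq promoter windows of this length, 16.1% held the first motif, 23.3% the second and 3.68% both. C1qb held both once each, C1qc, Mir99ahg and Hpgd held the second once each, and Tanc2 and Cd163 held neither in this window. Capitals mark the motifs, each sequence runs 5′ to 3′ on the gene's strand, and C1qa is named only. The windows are chr4:136886201-136886450, minus strand (C1qb), chr4:136892915-136893164, minus strand (C1qc), chr11:105589736-105589985, plus strand (Tanc2), chr16:77329078-77329327, plus strand (Mir99ahg, at a start inside the GENCODE gene), chr8:56294302-56294551, plus strand (Hpgd) and chr6:124304401-124304650, plus strand (Cd163).
C1qb: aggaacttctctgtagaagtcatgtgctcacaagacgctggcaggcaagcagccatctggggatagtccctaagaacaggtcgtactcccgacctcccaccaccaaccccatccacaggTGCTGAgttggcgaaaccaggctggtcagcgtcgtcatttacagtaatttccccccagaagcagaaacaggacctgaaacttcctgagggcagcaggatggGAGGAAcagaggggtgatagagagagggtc
C1qc: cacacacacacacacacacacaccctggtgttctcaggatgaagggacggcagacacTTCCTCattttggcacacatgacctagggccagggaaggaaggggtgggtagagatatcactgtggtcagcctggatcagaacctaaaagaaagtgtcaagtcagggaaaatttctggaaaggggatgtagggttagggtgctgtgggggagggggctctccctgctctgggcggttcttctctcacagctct
Tanc2: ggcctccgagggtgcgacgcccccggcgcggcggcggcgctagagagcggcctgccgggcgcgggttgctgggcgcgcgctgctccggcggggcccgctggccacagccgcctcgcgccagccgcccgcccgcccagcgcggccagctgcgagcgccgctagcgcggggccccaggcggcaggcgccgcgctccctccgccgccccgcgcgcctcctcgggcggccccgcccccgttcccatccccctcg
Mir99ahg: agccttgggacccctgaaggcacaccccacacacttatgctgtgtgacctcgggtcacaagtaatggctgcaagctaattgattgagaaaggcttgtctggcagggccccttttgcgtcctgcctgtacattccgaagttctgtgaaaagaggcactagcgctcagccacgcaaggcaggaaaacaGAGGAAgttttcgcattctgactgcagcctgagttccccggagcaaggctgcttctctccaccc
Hpgd: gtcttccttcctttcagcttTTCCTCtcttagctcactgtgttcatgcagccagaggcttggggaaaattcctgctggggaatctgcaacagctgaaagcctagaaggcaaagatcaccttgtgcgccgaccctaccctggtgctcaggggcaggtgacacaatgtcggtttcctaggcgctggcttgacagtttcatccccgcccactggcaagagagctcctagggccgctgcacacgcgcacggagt
Cd163: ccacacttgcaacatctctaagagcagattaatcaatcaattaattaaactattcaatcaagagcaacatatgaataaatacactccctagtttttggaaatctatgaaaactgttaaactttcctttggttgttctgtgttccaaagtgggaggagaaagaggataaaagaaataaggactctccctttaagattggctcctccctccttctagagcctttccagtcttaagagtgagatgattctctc

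Members made up 936 of 2546 filtered cells (36.8%, 34.9 to 38.7%) of the BM library and under 1% of every other library. The GVHD library held 13 members among 2698 cells (0.482%, 0.257 to 0.823%). The share in GVHD was 76.3-fold lower than in BM (interval of the ratio 44.4 to 144), and both libraries came from the same sort for CD11b+ CD64+ donor cells. The ratio of shares was 0.0131. It was 0.0236 with the shared barcodes kept in BM, and no GVHD member remained when every shared barcode was dropped.

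The IL34KO and WT libraries held few members. IL34KO macrophages had 12 of 6494 cells (0.185%, 0.0955 to 0.323%) and WT macrophages 14 of 5245 (0.267%, 0.146 to 0.447%), a ratio of 0.692 with an interval of 0.293 to 1.61. In the T-cell sorts, IL34KO had 74 of 8569 cells (0.864%, 0.679 to 1.08%) and WT had 113 of 14061 (0.804%, 0.663 to 0.965%), a ratio of 1.07 with an interval of 0.791 to 1.45. Both intervals include 1. When cells were thinned to 5000 UMIs before the rule, the ratio in the T-cell libraries was 1.52, from 49 IL34KO and 55 WT members, with a counting interval of 1.01 to 2.27 that leaves 1 outside. The intervals leave room for an IL34KO share that is anywhere from 3.42-fold lower to 1.61-fold higher in the macrophage libraries.

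**Figure D1:**
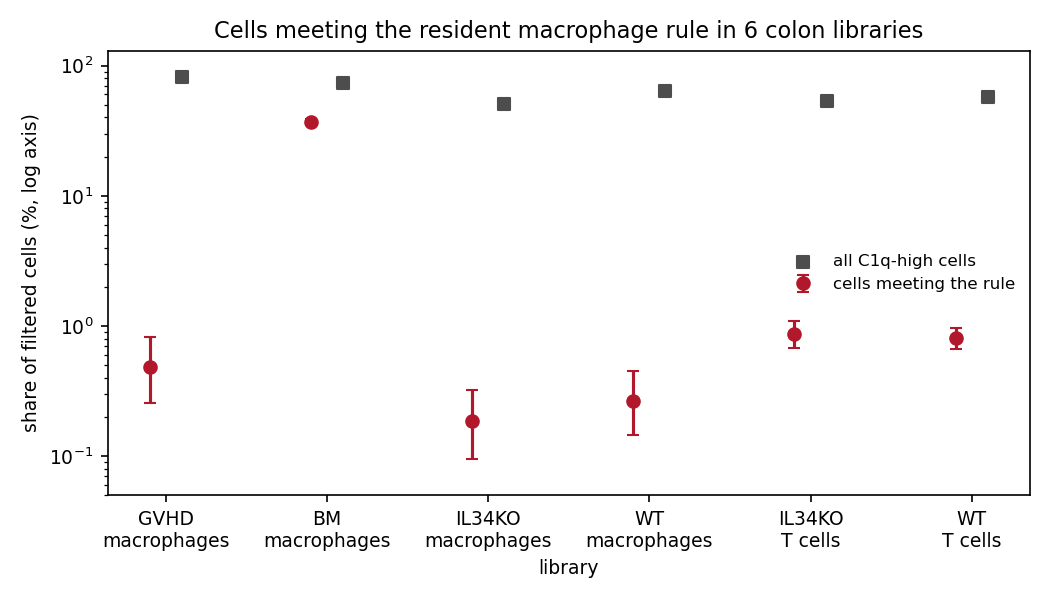
Share of filtered cells (percent, log axis) that met the rule, as circles with exact 95% intervals, and share that was C1q-high, as squares, in each of the 6 libraries. The circle of the BM library sits at 36.8%, and those of the other 5 libraries sit between 0.185% and 0.864%, while C1q-high cells are 50.5% to 81.2% of every library.

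The resident transcripts separated the libraries, and so did the negative criteria that followed. C1q-high cells numbered 2190 in GVHD and 1884 in BM, and at least 3 resident UMIs were found in 163 of them in GVHD (7.44%, 6.38 to 8.62%), against 1467 in BM (77.9%, 75.9 to 79.7%). The share was 3.60% and 7.56% of C1q-high cells in the IL34KO and WT macrophage libraries, and 5.46% and 4.58% in the IL34KO and WT T-cell libraries. The negative criteria then took a larger part of the remaining cells outside BM. Together they left 13 of the 163 GVHD cells and 936 of the 1467 BM cells. A UMI of Nos2, which encodes the inducible nitric oxide synthase of inflammatory macrophages, was absent from 96 of the 163 GVHD cells and from 1461 of the 1467 BM cells. Arg1, the arginase of alternatively activated macrophages, was then absent from 56 GVHD and 1442 BM cells. The cell-cycle criterion left 13 of 38 GVHD cells and 936 of 1240 BM cells, the largest loss among BM cells with resident transcripts.

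All criteria count UMIs, so they move with depth. Within BM C1q-high cells, at least 3 resident UMIs were found in 35.9% of the 128 cells below 5000 UMIs, 74.0% of those from 5000 to 10000, 80.1% from 10000 to 15000, 81.2% from 15000 to 20000 and 87.4% of the 412 cells above that. The share of these cells that met the whole rule, with its upper limits on other genes, went the other way at high depth. It was 34.4%, 60.2%, 60.8%, 48.3% and 29.6% in the same bins. The GVHD library was deeper than BM (median of filtered cells 15577.5 and 11754 UMIs), and the part of depth in its lower share was not separated from the rest. With every cell thinned to 5000 UMIs before the rule was applied, 7 GVHD and 864 BM cells met it, which need not be the same cells. BM cells with exactly 3 resident UMIs, just inside the rule, numbered 72, and those with exactly 2, just outside, numbered 61. P3h2, a collagen-modifying enzyme gene, had 85.7 CPM (the gene's UMIs over all UMIs of the summed cells, scaled to 1000000) in cells with 3 and 57.9 CPM in cells with 2. Ccr2, the receptor by which monocytes leave the marrow, had 111 CPM in cells with 3 and 160 CPM in cells with 2.

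The transcripts that chose the BM members are given first, as a description. All 936 had C1qa (2490 CPM, 2463 to 2518), and 98.0% had Tanc2 (641 CPM), 63.4% Mir99ahg (181 CPM), 58.3% Hpgd (113 CPM) and 20.1% Cd163 (70.9 CPM). Macrophage genes that the rule did not use were also present. Csf1r, the receptor of CSF1 and IL-34, stood at 774 CPM and was found in 98.6% of cells. Adgre1, the F4/80 antigen, stood at 537 CPM, Mrc1, the mannose receptor, at 930 CPM, and Cx3cr1, the fractalkine receptor, at 407 CPM. The monocyte genes Ccr2 and Ly6c2 stood at 36.1 and 10.6 CPM, with S100a8 and S100a9 at 0 UMIs. Cd4, carried by a long-lived subset of gut macrophages, was at 167 CPM in 68.3% of cells. T-cell markers (Cd3d, Cd3e, Cd3g, Trac, Trbc2) summed to 8.39 CPM, and 17 of the 936 cells had a Cd3 UMI, far fewer than had Cd4.

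Free RNA sets a floor for such shares. In the BM library, T cells, taken as cells with at least 3 UMIs of Cd3d, Cd3e and Cd3g and fewer than 3 C1q UMIs, should lack macrophage genes and numbered 70 after thinning to 5000 UMIs. Tanc2 and Cd163 were used by the rule, so their shares in members are a description. A Tanc2 UMI was found in 89.6% of BM members at that depth, against 14 of the 70 T cells (interval 11.4 to 31.3%). Cd163 was found in 13.8% of members, against 1.43% of the T cells (0.0362 to 7.70%). Lyve1 was found in 6.39% of members, against 0 of the 70 T cells (exact interval up to 5.13%). Unthinned, the shares in members and T cells were 98.0% and 19.8% for Tanc2, 20.1% and 1.04% for Cd163, and 9.40% and 0% for Lyve1, at median depths of 12809 and 6556.5 UMIs.

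The 13 GVHD cells bore the label in part only. All 52 of their resident UMIs were Tanc2, and Mir99ahg, Hpgd and Cd163 were at 0 UMIs (a count of 0 allows up to 12.1 CPM, from 3 counts). Their most resident-rich cell had 6 such UMIs, against 97 in the richest BM member, with medians of 4 and 11. Ccr2 was at 302 CPM (238 to 379) in the 13 cells, against 36.1 CPM in BM members. Fn1, the fibronectin gene of monocyte-derived cells, was at 544 CPM, against 25.2 CPM. Chil3, a gene of monocytes and alternatively activated macrophages, was at 222 CPM, against 8.84 CPM. Among genes outside the rule, Csf1r and Timd4 stood close. Csf1r had a per-cell median of 697 CPM in the 13 cells and 701 CPM in BM members. Timd4 had no UMI in 61.5% of the 13 cells and 65.8% of BM members. Cd4 differed, with no UMI in 100% of the 13 cells and 31.7% of BM members. The 13 cells are therefore called GVHD cells meeting the rule. Of the 13, none would meet it if Tanc2 were not counted, against 548 of the BM members.

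Some of the 12 IL34KO and 14 WT cells of the macrophage libraries carried neutrophil transcripts, and single cells held most of them. At least 3 UMIs of the 5 neutrophil markers were found in 5 of the 12 IL34KO and 3 of the 14 WT cells. The 5 neutrophil markers summed to 1524 CPM in IL34KO and 1163 CPM in WT cells, against 61.9 CPM in BM members, with Ly6g at 0 in each of the IL34KO and WT sets. S100a9 was found in 6 of the 12 IL34KO cells (973 CPM) and in 4 of the 14 WT cells (902 CPM), and 1 cell held 71.1% of its UMIs in IL34KO and 94.8% in WT. Hpgd was at 0 UMIs in both. The other C1q-high cells of these libraries had S100a9 at 1701 CPM (IL34KO) and 715 CPM (WT), and the part of free RNA in the members' level was not tested. In members of the T-cell libraries, Mir99ahg was at 109 CPM (IL34KO) and 116 CPM (WT), Cx3cr1 at 258 and 320 CPM, and Ccr2 at 120 and 134 CPM. Their resident identity list summed to 26694 CPM (IL34KO) and 27325 CPM (WT), against 32552 CPM in BM members. Their MHC class II list summed to 23586 and 23305 CPM, against 42112 CPM in BM members, and their monocyte list to 13530 and 10189 CPM, against 6377 CPM. Their T-cell markers summed to 125 and 96.5 CPM, against 135 and 110 CPM in the other C1q-high cells of the same libraries. A Cd3 UMI was found in 9 of 74 IL34KO and 11 of 113 WT members.

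**Figure D2:**
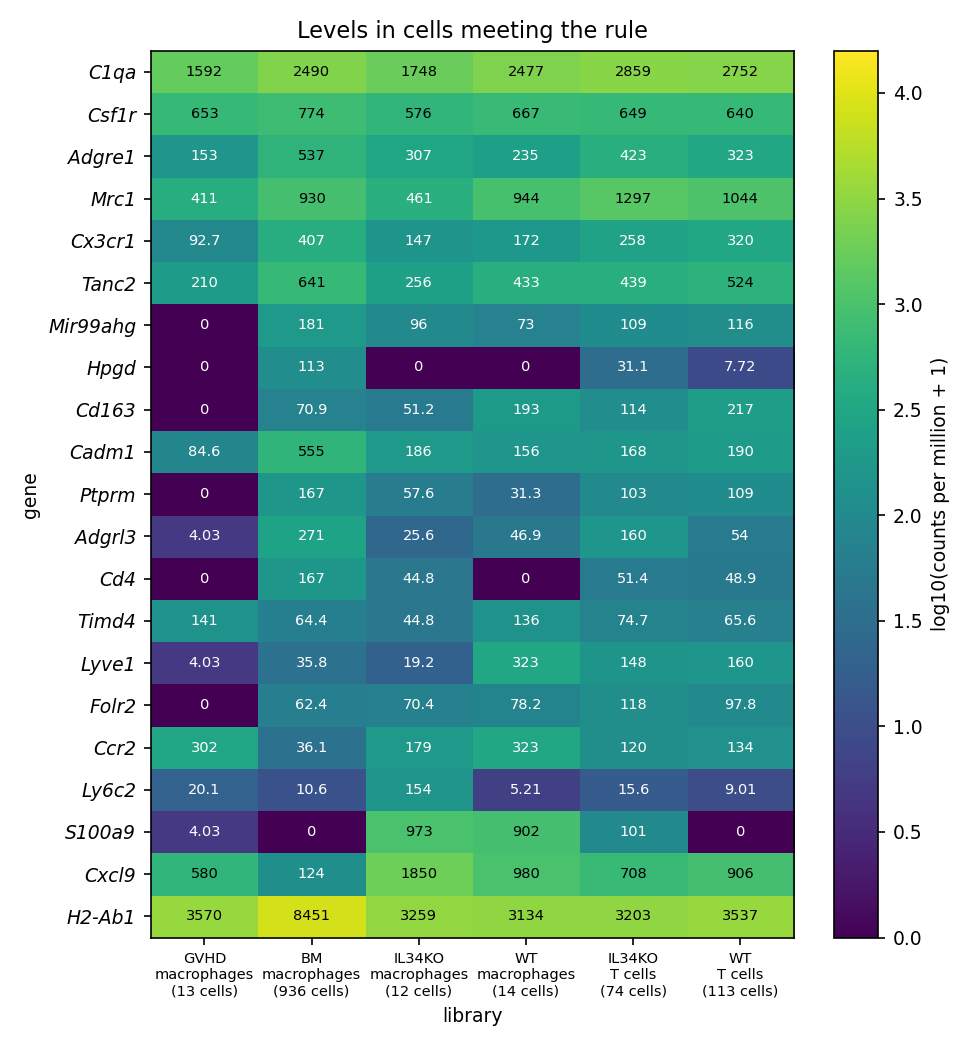
Level of 21 genes (printed CPM, colour as log10 of CPM + 1) in the cells meeting the rule, in columns by library with the number of cells. C1qa and Csf1r are high in all 6 columns, Mir99ahg, Hpgd and Cd163 are 0 in the GVHD column, and S100a9 in the macrophage columns of IL34KO (973 CPM) and WT (902 CPM) comes to 71.1% and 94.8% from 1 cell each.

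The GVHD cells and BM members are given side by side only. The MHC class II list summed to 23047 CPM in the GVHD cells and 42112 CPM in BM members, and the other C1q-high cells had a like gap, with 26436 CPM in GVHD and 41639 CPM in BM. The interferon-gamma list summed to 2462 CPM in GVHD and 1058 CPM in BM, while the type I interferon list stood the other way, at 471 and 826 CPM. Both gaps were also present in the other C1q-high cells. There the interferon-gamma list summed to 3414 CPM (GVHD) and 1614 CPM (BM), and the type I interferon list to 766 and 1036 CPM. H2-Ab1, an MHC class II chain, was at 3570 CPM (3339 to 3813) in the 13 GVHD cells and 8451 CPM (8401 to 8501) in the 936 BM members. Cd74, the invariant chain, was at 6640 and 13394 CPM. Cxcl9, the chemokine that draws activated T cells, was at 580 CPM in GVHD and 124 CPM in BM, and Gbp2, an interferon-induced GTPase gene, at 435 and 53.3 CPM. Apoe, the lipid carrier that resident macrophages make in quantity, was at 8784 and 25805 CPM. Cadm1, an adhesion molecule, was at 84.6 CPM in GVHD and 555 CPM in BM. Genes of these paragraphs outside the naming rule were chosen after their values were seen, and 13 cells from 1 library give no measure of spread between mice.

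The IL34KO and WT cells of the macrophage libraries, 12 and 14 cells, are also given side by side only. Csf1r was at 576 CPM (463 to 708) in IL34KO and 667 CPM (557 to 794) in WT cells. C1qa was at 1748 CPM in IL34KO and 2477 CPM in WT cells. Slc7a2, an arginine transporter gene, was at 44.8 CPM in IL34KO and 980 CPM in WT, where it was found in 7 of the 14 cells and 1 cell held 44.1% of its UMIs. Cxcl9 was at 1850 CPM in IL34KO and 980 CPM in WT. Lyve1 was at 19.2 and 323 CPM, found in 16.7% and 21.4% of cells, and 1 cell held 91.9% of the WT UMIs.

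Within the BM library, members were set against the 285 other C1q-high cells, which had fewer than 3 resident UMIs, no Epcam and fewer than 2 cell-cycle UMIs. These others could hold any number of Nos2, Arg1 and Gpnmb UMIs, and had 88 UMIs of Arg1 and 6 of Nos2. The members had less of the monocyte genes and more of a set of adhesion, lipid mediator and iron genes. The rule itself used this contrast, through the resident transcripts and through Nos2, Arg1 and Gpnmb, so the values are a description with no test. Of 6055 genes with at least 20 CPM and 20 UMIs in one of both sets, 202 (3.34%) were at least 2-fold higher in members and 163 (2.69%) at least 2-fold lower, and the median log2 ratio was 0.01. The counts moved when depth was equalised, and the sets moved with them. Members held a median of 12809 UMIs and the others 10171, and when all cells were thinned to 5000 UMIs before the rule was applied (864 against 604 cells), 39 genes were higher and 95 lower.

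Monocyte genes showed the widest gap. Of 13 measured genes in the monocyte list, 10 were at least 2-fold lower in members and none was higher, with a median log2 ratio of -2.46 (-2.00 when thinned). Ly6c2, the Ly6C antigen of classical monocytes, was at 10.6 CPM in members and 109 CPM in the others, 10.3-fold lower (8.43 to 12.7). Ccr2 was at 36.1 and 269 CPM, 7.46-fold lower (6.64 to 8.39), and Fn1 at 25.2 and 172 CPM. Plac8 (33.3 and 308 CPM), S100a4 (53.0 and 416 CPM), S100a6 (150 and 847 CPM) and Clec4e (34.2 and 244 CPM), all genes of blood monocytes, stood the same way. Outside the list, Tmsb10, an actin-binding peptide gene, was at 63.7 and 520.5 CPM, and Retnla, the resistin-like molecule of alternative activation, at 90.0 and 493 CPM. F10 (6.48 and 76.6 CPM), Napsa (7.32 and 58.3 CPM) and Saa3 (0.610 and 27.2 CPM) completed the lowest 12. Of these 12, the log2 ratio under thinning lay between -2.82 (Ly6c2) and -1.18 (Saa3).

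Genes higher in members included several of adhesion and guidance. Ptprm, a receptor phosphatase that mediates contact between cells, was at 167 CPM in members and 25.1 CPM in the others, 6.68-fold higher (5.27 to 8.58). Cadm1 was at 555 and 156 CPM, Adgrl3, an adhesion receptor known from synapses, at 271 and 76.6 CPM, and Plxna4, a semaphorin receptor, at 130 and 37.1 CPM. These 4 were the members of that list at least 2-fold higher, of 19 measured, and the list's median log2 ratio was 0.33. Bmp2, a growth factor by which muscularis macrophages act on enteric neurons, was at 31.6 CPM in members and 3.88 CPM in the others. P3h2 was at 111 and 29.0 CPM, and Agmo, an ether-lipid cleaving enzyme gene, at 142 and 37.4 CPM. Hrh1, the histamine H1 receptor, was at 42.8 and 8.47 CPM, Inpp4b, a phosphoinositide phosphatase gene, at 99.9 and 24.01 CPM, and Cpne8 at 41.2 and 3.53 CPM. Rapgef5 (51.5 and 8.47 CPM), Samd4 (53.1 and 9.89 CPM), Immp2l (174 and 42.7 CPM) and Reps2 (66.9 and 15.9 CPM) completed the highest 12. Under thinning their log2 ratios lay between 0.76 (P3h2) and 2.05 (Samd4), with Ptprm at 1.35 and Cadm1 at 0.80.

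**Figure D3:**
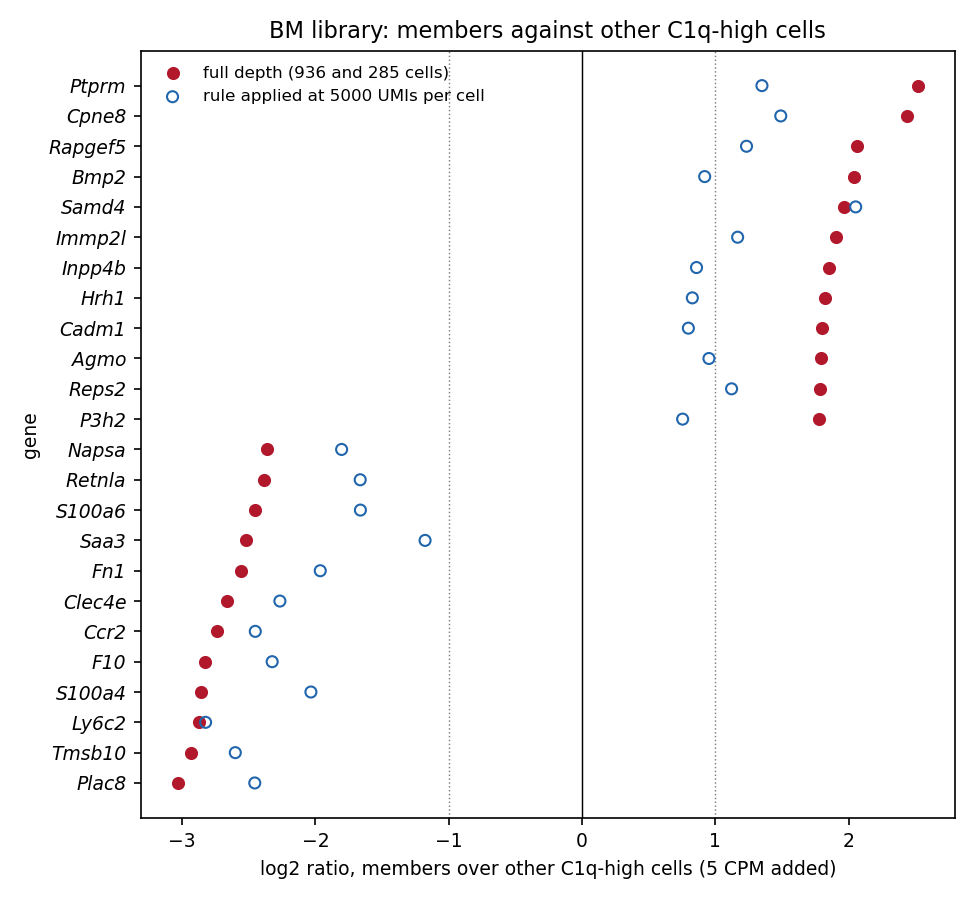
Log2 ratio of BM members over other C1q-high BM cells, with 5 CPM added, for the 12 highest and the 12 lowest genes, with the rule applied at full depth and after thinning every cell to 5000 UMIs. Points of the lowest genes stay at -1.18 or below in both, while most points of the highest genes move towards 0 when cells are thinned.

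Gene groups of resident function stood higher in members by less. In the resident identity list 4 of 16 measured genes were at least 2-fold higher and none lower (median log2 ratio 0.63, thinned 0.29). Cd4 was at 167 CPM in members and 57.6 CPM in the others, and Lyve1, the hyaluronan receptor, at 35.8 and 15.9 CPM. In the scavenger and efferocytosis list 3 of 16 were higher and 1 lower, and Mertk, the receptor for dying cells, was at 160 CPM in members and 73.4 CPM in the others, with its ligand Gas6 at 127 and 53.0 CPM and Timd4, the phosphatidylserine receptor TIM-4, at 64.4 and 21.9 CPM. In the iron and haem list 3 of 11 were higher. Slc40a1, the iron exporter ferroportin, was at 64.8 and 18.7 CPM, Cp, the ferroxidase ceruloplasmin, at 81.3 and 21.9 CPM, and Hmox1, the haem oxygenase, at 409.5 and 187 CPM. In the prostaglandin and leukotriene list 2 of 10 were higher and 1 lower. Hpgds, a prostaglandin D synthase, was at 472 and 189 CPM and Ltc4s, a leukotriene synthase, at 84.7 and 38.5 CPM. Ptgs1, the constitutive cyclooxygenase, was at 245 and 123 CPM.

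Some lists of inflammation and energy use had genes that were lower. In the glycolysis and hypoxia list 4 of 17 genes were at least 2-fold lower and none higher (median log2 ratio -0.75, thinned -0.53), with the lactate exporter Slc16a3 at 8.23 CPM in members and 39.2 CPM in the others and the glycolytic enzymes Pgk1 (71.4 and 157 CPM) and Eno1 (47.4 and 107 CPM). In the interferon-gamma list 4 of 17 were lower and none higher (median -0.71, thinned -0.38), with Gbp2 at 53.3 and 130 CPM and Gbp5 at 18.8 and 43.4 CPM. Acod1, the itaconate enzyme, was at 14.6 and 95.3 CPM, Ptgs2, the inducible cyclooxygenase, at 171 and 416 CPM, and Il1rn, the IL-1 receptor antagonist, at 169 and 431 CPM. The proinflammatory list had 3 of 10 genes lower and none higher, with a median of -0.13. In the chemokine list 3 of 15 were lower, namely Ccl5 (45.4 and 158 CPM), Ccl6 (274 and 824 CPM) and Ccl9 (169 and 511 CPM), and Ccl8 was higher, with a list median of -0.22. The CSF1R axis, MHC class II, Fc receptor and lysosome lists had no gene at 2-fold among 14, 11, 6 and 17 measured, with medians between -0.06 and 0.06. Csf1r was at 774 CPM in members and 661 CPM in the others.

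The same contrast was then made in the T-cell libraries, with fewer members and UMIs. IL34KO members (74 cells) against the 2752 other C1q-high cells had 440 of 5878 measured genes (7.49%) at least 2-fold higher and 221 (3.76%) lower. WT members (113 cells) against 5049 others had 530 of 5944 (8.92%) higher and 228 (3.84%) lower. Another scaling moved all log2 ratios of these 2 contrasts by -0.24 (IL34KO) and -0.26 (WT) with TMM, and turned the split round, to 274 higher and 441 lower in IL34KO and 316 higher and 464 lower in WT. In the resident identity list 13 of 16 (IL34KO) and 13 of 15 (WT) genes were higher and 1 was lower in each, with medians of 1.78 and 1.95 (1.36 and 1.69 when thinned).

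Lyve1, Folr2 and F13a1 are known from perivascular macrophages. Lyve1 was at 148 CPM in IL34KO members and 4.95 CPM in the other cells, and at 160 CPM in WT members and 2.39 CPM in the other cells. Folr2, a folate receptor, was at 118 and 4.15 CPM in IL34KO and at 97.8 and 3.63 CPM in WT. F13a1, a coagulation factor subunit gene, was at 724 and 30.02 CPM in IL34KO and at 848 and 34.3 CPM in WT. Ednrb, an endothelin receptor, was 83.7-fold higher (54.2 to 132) in IL34KO and 88.3-fold higher (64.3 to 122) in WT members. Cd163 counted in the rule, so cells that carry these genes together with Cd163 could enter as members through it. In the split by Cd163 given below, Lyve1, Ednrb and F13a1 stood far higher in members with a Cd163 UMI. Their ratios are thus a description and need not hold for most members. The monocyte chemoattractant Ccl8 was at 2637 and 110 CPM in IL34KO and at 2502 and 134 CPM in WT. Ptprm, leading in BM, was at 103 and 1.27 CPM in IL34KO and at 109 and 2.94 CPM in WT, and Gas6 at 131 and 7.92 CPM in IL34KO and at 120 and 6.19 CPM in WT. Fcna, a ficolin of macrophages, was at 157 and 10.4 CPM in IL34KO and at 156 and 11.1 CPM in WT. Slc40a1 (45.1 and 4.996 CPM in IL34KO, 64.3 and 5.78 CPM in WT) and Cp (96.5 and 12.96 CPM in IL34KO, 113 and 10.8 CPM in WT) stood the same way as in BM.

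Among the named genes lower in these members, Chil3 was at 17.1 CPM in IL34KO members and 441 CPM in the other cells, and at 60.5 and 428 CPM in WT. Spp1, osteopontin, was at 20.2 and 213 CPM in IL34KO and at 11.6 and 178 CPM in WT. Inhba, the activin A subunit, was at 66.9 and 388 CPM in IL34KO and at 29.6 and 380 CPM in WT. Slpi, a protease inhibitor gene, was at 6.23 and 103 CPM in IL34KO and at 5.15 and 120 CPM in WT. In the monocyte list 9 of 15 genes were lower and 1 higher in IL34KO (median log2 ratio -1.54), and 10 of 15 lower and none higher in WT (median -1.42), against a median of -2.46 in BM. The proinflammatory list had 5 of 14 lower and none higher in IL34KO, and 5 of 14 lower and 2 higher in WT. In the glycolysis and hypoxia list 9 of 19 were lower in IL34KO and 11 of 19 in WT, with Slc16a3 at 38.9 and 99.2 CPM in IL34KO and at 25.7 and 96.7 CPM in WT. The stress and dissociation list stood higher, 8 of 17 genes in each, with Hspa1a at 145 and 27.3 CPM in IL34KO and Hspa1b at 121 and 13.9 CPM in WT. Dissociation and depth were not tested as parts of these differences, and medians of UMIs were 8226.5 against 7376 in IL34KO and 6862 against 6720 in WT. The other cells could hold any number of Nos2, Arg1 and Gpnmb UMIs, which the rule limits in members. In IL34KO they had 5169 UMIs of Nos2 and 5128 of Arg1. Without these criteria, the count of lower genes was 71 rather than 221 in IL34KO and 61 rather than 228 in WT. The lower counts thus depended on the rule, and its part in each gene's value was not tested.

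Members of the IL34KO and WT T-cell libraries were then set against each other, the only IL34KO comparison with at least 30 members on both sides. Of 5484 measured genes, 95 (1.73%) were at least 2-fold higher in the 74 IL34KO members and 133 (2.43%) lower. Csf1r, through which IL-34 acts, was at 649 CPM (588 to 714) in IL34KO and 640 CPM (585 to 698) in WT. Lyve1 was at 148 and 160 CPM, Cd4 at 51.4 and 48.9 CPM, and Timd4 at 74.7 and 65.6 CPM, with overlapping intervals. Cd163 was at 114 CPM (89.1 to 143) in IL34KO and 217 CPM (186 to 253) in WT, while its share of cells was 27.0% and 29.2%. The 23 lists had medians between -0.22 (scavenger and efferocytosis) and 0.30 (interferon-gamma), each with at most 2 genes at 2-fold in one direction.

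Among the named genes, Gdf15, a stress-induced cytokine, was at 543 CPM in IL34KO and 246 CPM in WT members, 2.21-fold higher (1.85 to 2.65) and found in 42 of 74 and 48 of 113 cells. Ccl2, the CCR2 ligand, was at 649 and 306 CPM. Tap2, a peptide transporter for MHC class I, was at 94.95 and 38.6 CPM, and Irgm1, an interferon-induced GTPase gene, at 65.4 and 19.3 CPM. Arpc4, an actin nucleation subunit, was at 177 and 61.8 CPM. Tgfbr1, a TGF-beta receptor, was lower, at 232 CPM in IL34KO and 512 CPM in WT, 2.21-fold (1.82 to 2.68), and was found in 44 of 74 and 70 of 113 cells, with 14.1% of the WT UMIs from 1 cell. Ciita, the master regulator of MHC class II, was at 88.7 and 184 CPM. It was the 1 gene at least 2-fold lower of 11 measured in the MHC class II list, whose median log2 ratio was -0.01. H2-Ab1 was at 3203 and 3537 CPM. Ddx60, an antiviral helicase gene, was at 45.1 and 151 CPM. Of the WT Ddx60 UMIs, 25.6% came from 1 cell.

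Several of the largest ratios rested on few cells. Ccl17, a chemokine of dendritic cells and macrophages, had 68 UMIs in IL34KO members, of which 77.9% came from 1 cell, against 5 UMIs in WT. S100a9 had 65 UMIs in 2 IL34KO cells and none in WT. Il12b, a subunit of IL-12 and IL-23, had none in IL34KO and 54 UMIs in 4 WT cells. Adgrl3 was at 160 CPM in IL34KO and 54.0 CPM in WT, with 26.2% and 31.0% of its UMIs from 1 cell each, and Ube3c at 114 and 34.7 CPM, with 50.7% of the IL34KO UMIs from 1 cell.

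Members of BM also differed among themselves, along Cd163. At 5000 UMIs per cell, 123 BM members had a Cd163 UMI and 769 had none, and this split was chosen after values were seen. Cd163 also counts toward the resident transcripts of the rule. Members with no Cd163 UMI at full depth had to enter through Tanc2, Mir99ahg or Hpgd, while others could enter through Cd163 itself. The values along Cd163 are thus a description in every library, and the part of the rule in them was not tested. Csf1r was at 785 CPM with and 770 CPM without Cd163. In the resident identity list 8 of 17 genes were at least 2-fold higher with Cd163 and 1 lower. Of 5774 measured genes, 294 (5.09%) were at least 2-fold higher with Cd163 and 227 (3.93%) lower. Scaling with TMM moved all log2 ratios by -0.16. Cells without a UMI can still carry the transcript at this depth.

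Lyve1 was at 179 CPM with Cd163 and 8.58 CPM without, 20.8-fold higher (14.0 to 31.8), and was found in 28.5% of cells with Cd163 (20.7 to 37.3%) and 2.86% of those without (1.80 to 4.30%). Folr2 was found in 52.0% and 7.41%. Ednrb was at 220 CPM with Cd163 and 14.6 CPM without, F13a1 at 841 and 97.8 CPM, and the carbonyl reductase Cbr2 at 78.0 and 5.46 CPM. The lectins Fcna (150 and 17.4 CPM), Clec10a (101 and 13.8 CPM) and Colec12 (56.9 and 12.5 CPM) went the same way. The chemokines Ccl2 (1953 and 344 CPM), Ccl7 (1182 and 314 CPM) and Ccl8 (824 and 183 CPM) were higher with Cd163. In the growth factor and matrix list 8 of 15 were higher and 1 lower (median log2 ratio 1.03), with the insulin-like growth factor Igf1 at 250 and 72.3 CPM. In the complement list 4 of 9 were higher, with C4b at 102 and 10.9 CPM. Mrc1 (1982 and 750 CPM), Maf (662 and 296 CPM), the platelet factor gene Pf4 (1876 and 873 CPM) and the scavenger receptor Stab1 (402 and 154 CPM) were higher by 2.15-fold to 2.64-fold.

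Among the named genes lower with Cd163, H2-Ab1 was at 4519 CPM with Cd163 and 9357 CPM without, 2.07-fold lower (1.99 to 2.15), and H2-Eb1 at 4255 and 8780 CPM. Cd74 was at 7909 and 14585 CPM. In the MHC class II list 3 of 11 genes were at least 2-fold lower and none higher, with a median log2 ratio of -0.85. Itgax, which encodes CD11c, was at 65.0 and 223 CPM. The proteases Mmp12 (53.7 and 326 CPM) and Adamdec1 (27.6 and 174 CPM), known from mature gut macrophages, and the nuclease Dnase1l3 (111 and 512 CPM) were 4.63-fold to 6.29-fold lower. Adgrl3 (55.3 and 309 CPM), Cadm1 (275 and 612 CPM), the tetraspanin Cd9 (125 and 349 CPM), Il1b (823 and 1985 CPM) and Cxcl9 (32.5 and 115 CPM) were also lower. Cd4 was at 148 and 183 CPM (ratio 0.808, 0.642 to 1.01), and Timd4 at 92.7 and 59.6 CPM.

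The T-cell libraries, with few cells, mostly went the same way. IL34KO members at 5000 UMIs had 15 cells with Cd163 and 49 without, and WT had 14 and 66. F13a1 was at 2907 and 184 CPM in IL34KO and at 2786 and 121 CPM in WT. Ednrb was at 613 and 4.08 CPM in IL34KO and at 643 and 15.2 CPM in WT. H2-Ab1 was at 1013 and 3792 CPM in IL34KO and at 1400 and 4027 CPM in WT, and Cxcl9 at 133 and 861 CPM in IL34KO and at 114 and 1127 CPM in WT. Igf1 was an exception, at 373 and 122 CPM in IL34KO and 100 and 127 CPM in WT.

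**Figure D4:**
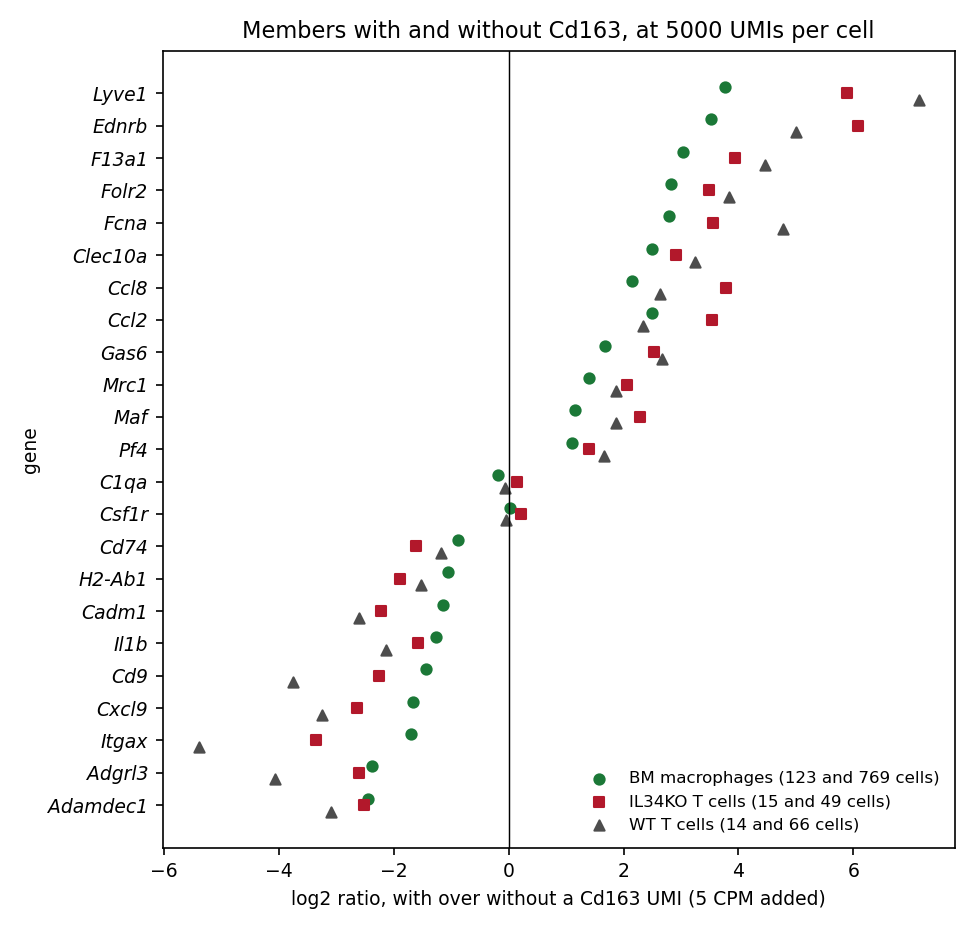
Log2 ratio (5 CPM added) of members with over members without a Cd163 UMI, at 5000 UMIs per cell, in the BM library and in the IL34KO and WT T-cell libraries, for genes named in the text. Lyve1, Ednrb and F13a1 lie far to the right and H2-Ab1, Itgax and Cxcl9 to the left of 0 in all 3 libraries.

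Clustering of the 936 BM members alone (Leiden) gave 6 sub-clusters, described by their leading genes and given no name. The first 3 held 307, 290 and 277 cells. Sub-cluster 1 led with Tmem267, Cxcl3 and Il7r, and had the most H2-Ab1 (10625 CPM) and little Fos (412 CPM). Sub-cluster 2 led with Hes1 and heat shock genes, with Hspa1a at 3141 CPM against 165 CPM in sub-cluster 1 and Fos at 2946 CPM. Cd163 was at 3.65 and 8.61 CPM in sub-clusters 1 and 2. Heat shock and Fos are known to be induced when tissue is dissociated, and their part in this split was not tested.

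Sub-cluster 3 led with Ccr2 (83.8 CPM against 9.07 CPM in the rest), Ly6c2, Fn1, Retnla (191 and 33.2 CPM) and Alox5ap, and had Cd163 at 133 CPM. Ccr2 was found in 28.5% of its cells, Fn1 in 14.4%, Retnla in 12.3% and Ly6c2 in fewer, while Alox5ap was found in 63.9%. The levels of Ccr2, Ly6c2, Fn1 and Retnla thus came from a minority of its cells. Sub-cluster 4, with 29 cells, led with Lyve1 (784 CPM against 14.3 CPM), Ednrb, Cbr2 and Fcna, with Cd163 at 686 CPM, Timd4 at 117 CPM and Folr2 at 514 CPM. It had little Cd4 (5.46 CPM), H2-Ab1 (738 CPM), Itgax (10.9 CPM) and Cx3cr1 (46.4 CPM), and Apoe at 7234 CPM against 19903 CPM in sub-cluster 3. Over all BM members at 5000 UMIs, 12 of the 123 cells with Cd163 had a Ccr2 UMI (9.76%, 5.14 to 16.4%), against 7.28% of those without (5.55 to 9.35%). Sub-cluster 5, with 20 cells, led with the type I interferon genes Ifit3 (649 CPM against 15.05 CPM), Ifit2, Rsad2 and Irf7. Sub-cluster 6, with 13 cells, led with Plac8, Igf1 and Plk2 and had a median of 4274 UMIs, against 10975 to 14499 in the other 5.

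**Figure D5:**
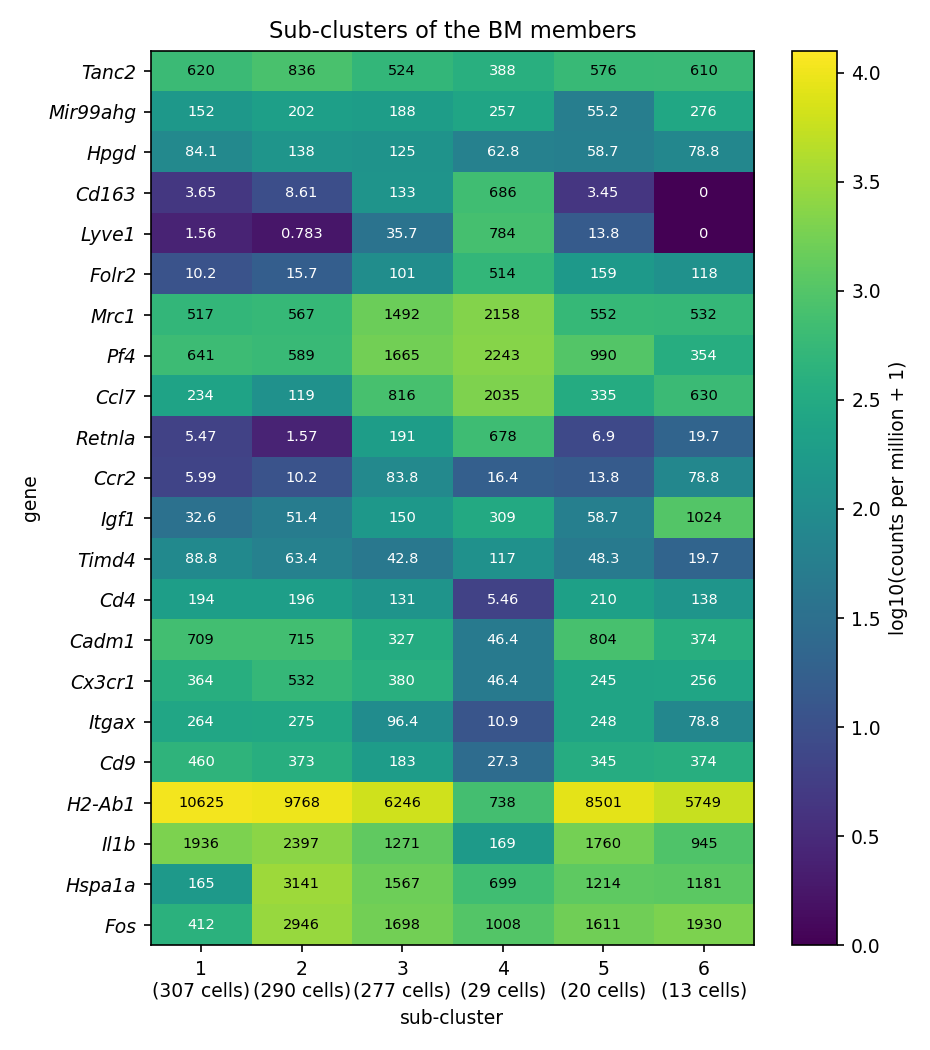
Level of 22 genes (printed CPM, colour as log10 of CPM + 1) in the 6 sub-clusters of BM members, with the number of cells. The column of sub-cluster 4 (29 cells) has the highest Cd163 (686 CPM), Lyve1 (784 CPM) and Folr2 (514 CPM) and the lowest H2-Ab1 (738 CPM).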

How the data were processed

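The deposited tables were 10x UMI counts per gene and barcode, which the authors made with Cell Ranger 7.0.1 on the mm10 build, per the submitters' processing notes; no normalization had been applied. Each of the 6 groups was 1 library. The members and gene lists were chosen with earlier results of these data known. Filtering left barcodes that showed 500 genes or more and a mitochondrial UMI share no higher than 10%, and BM barcodes also found in GVHD were dropped. For each set of cells and library, a gene's UMIs were added up and divided by the set's total over 32285 genes to give CPM, scaled to 1000000. Intervals are exact 95% Poisson (levels), conditional binomial (ratios) and Clopper-Pearson (shares) intervals, which cover counting error only. Log2 ratios had 5 CPM added. A gene was measured with at least 20 CPM and 20 UMIs in one of both sets, rule genes left out. Sets needed at least 30 cells for a count of genes. Named genes were the 12 highest and 12 lowest by log2 ratio among those with at least 50 UMIs and 20 CPM in one set, without rule, mitochondrial, ribosomal, haemoglobin, receptor-segment, sex-linked and unnamed genes, plus up to 4 per list in the direction of its median and a fixed set that included Csf1r, Il34, Cd4, Timd4, Lyve1 and Ccr2. Of the genes so named, those most telling of the members are given. Others, including the Cd163 split and the levels by library, were chosen after their values were seen. Doublets were not removed; Scrublet was an alternative, and marked 0 of 13 GVHD, 32 of 936 BM, 1 of 12 IL34KO and 1 of 14 WT macrophage members, and 2 of 74 IL34KO and 8 of 113 WT T-cell library members. Results were recomputed under 16 other settings and 2 more added after seeing the data (Tanc2 not counted, members with a Cd3 UMI left out). The scripts were tested on simulated data. Tools were Python 3.11.15, NumPy 2.4.6, SciPy 1.17.1, pandas 2.3.3, scanpy 1.11.5, leidenalg 0.10.2, R 4.3.3, edgeR 4.0.16 (TMM factors) and DESeq2 1.42.0 (size factors); no count model was fitted. Some genes that the rule names are not reported here.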

Additional observations from a re-analysis of the deposited data

Results flagged for a closer look

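These genes stood higher in cells of one library and lower in another under the same contrast. The differences were not tested, since each group was 1 library. Retnla, the resistin-like molecule, was lower in BM members than in other C1q-high cells (90.0 and 493 CPM, log2 ratio -2.39) and higher in WT members of the T-cell library (196 and 53.2 CPM, log2 ratio 1.78). S100a9 was higher in IL34KO members of the T-cell library than in the other cells (101 and 1.60 CPM, log2 ratio 4.01) and lower in WT members (0 and 20.7 CPM, log2 ratio -2.36), where the IL34KO UMIs came from 2 cells.

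Between IL34KO and WT members, Ccl17 was lower in the macrophage libraries (32.0 and 198 CPM, log2 ratio -2.46, from 5 and 38 UMIs, 89.5% of the WT ones from 1 cell) and higher in the T-cell libraries (106 and 6.43 CPM, log2 ratio 3.28), where 77.9% of the IL34KO UMIs came from 1 cell. Chil3 was higher in the macrophage libraries (243 and 73.0 CPM, log2 ratio 1.67, with 63.2% and 64.3% of the UMIs from 1 cell each). It was lower in the T-cell libraries (17.1 and 60.5 CPM, log2 ratio -1.57, from 11 and 47 UMIs, 42.6% of the WT ones from 1 cell). Inhba was lower in the macrophage libraries (19.2 and 125 CPM, log2 ratio -2.43, from 3 and 24 UMIs). It was higher in the T-cell libraries (66.9 and 29.6 CPM, log2 ratio 1.06, from 43 and 23 UMIs). The macrophage libraries held 12 IL34KO and 14 WT members.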

How the results depend on the processing

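No paired analysis was possible because each group was 1 library. Of 39 alternatives for the ratios of shares, 32 moved the ratio by less than its counting interval. The GVHD to BM ratio was 0.0236 with shared BM barcodes kept, 0 with every shared barcode dropped, 0.0256 with at least 2 and 0.0046 with at least 5 resident UMIs, 0.0272 without the Nos2, Arg1 and Gpnmb criteria and 0 with Tanc2 not counted. The IL34KO to WT ratio of the T-cell libraries was 1.52 after thinning to 5000 UMIs. Of 174 alternatives for counts of genes, 131 stayed within 1.5 times. BM members against other cells gave 500 higher and 351 lower genes at a floor of 5 CPM, 103 and 95 at 50 CPM, 321 and 298 with shared barcodes kept, and 39 and 95 when thinned. In the IL34KO T-cell library, TMM gave 274 higher and 441 lower, DESeq2 factors 276 and 436, and a floor of 5 CPM 1201 and 579. The lower count there was 120 at 50 CPM, 140 with at least 2 and 540 with at least 5 resident UMIs, 71 without the negative criteria and 505 when thinned. In the WT T-cell library, TMM gave 316 and 464, DESeq2 factors 326 and 443, 5 CPM 1385 and 534, 50 CPM 336 and 145, and no negative criteria 346 and 61. The lower count there was 149 with at least 2 and 490 with at least 5 resident UMIs, 477 when thinned and 978 with Tanc2 not counted. The Cd163 split gave 938 and 667 at 5 CPM, and 103 lower at 50 CPM. IL34KO against WT members of the T-cell libraries gave 795 and 884 at 5 CPM, 36 and 43 at 50 CPM, 63 and 51 without the negative criteria, and 74 lower with at least 2 resident UMIs. A value was called reversed only when its main ratio was at least 2-fold and its sign changed. Most list medians were smaller than that and could not be called reversed. By this definition no list median reversed in 2001 alternatives, and 6 of 2709 values for named genes did. After thinning, S100a9 was at -0.69 in IL34KO members against other cells and at -0.79 in IL34KO against WT members, and Fn1 was at 0.12 in the second. There, Chil3 was at 0.96 with at least 5 resident UMIs and 0.22 without the negative criteria, and Inhba at -0.42 without them. The causes were not tested.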
